A study of Homo sapiens with 16 samples.

Results

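The nucleolar ribosome biogenesis genes described here are 43 genes that code for RNA polymerase I and its initiation factors, the proteins of the small nucleolar ribonucleoproteins (snoRNPs), abundant nucleolar phosphoproteins, and assembly factors of the 40S and 60S ribosomal subunits. They were taken by gene name from a written list of MYC-driven ribosome assembly and RNA polymerase I genes, and they are 43 of the 25221 genes in the count table. All 43 were found. Of these, 40 had enough reads to be tested in each comparison, and NOP16, NIP7 and PPAN had 0 counts in all 16 libraries.

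Ribosome synthesis starts in the nucleolus, where RNA polymerase I transcribes the long ribosomal RNA precursor from repeated genes. The precursor is then methylated by box C/D snoRNPs, pseudouridylated by box H/ACA snoRNPs, cut, folded and bound by ribosomal proteins in a series of steps that need a large set of assembly factors. Many of these genes are known targets of the transcription factor MYC, and rapidly dividing leukemia cells express them at high levels.

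The RNA came from 2 human leukemia lines. MOLM13 derives from an acute myeloid leukemia of the monocytic M5a type and was used at passages 8 to 12, and K562 is an erythroid line from the blast crisis of chronic myelogenous leukemia and was used at passages 12 to 18. Each line was treated for 4 h with 20 μM Ro 08-2750 (Ro), a small molecule that the study uses against the RNA-binding protein MSI2, or with DMSO alone, and all groups contained 0.1% DMSO. There were 4 libraries in each of the 4 groups, and the labels number them as pairs 1 to 4 of Ro and DMSO within a line. Both are established lines. What the samples of a pair share is not stated, nor is it stated that samples came from separate cultures, so p-values measure the spread between these samples, which may be technical.

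Library totals ranged from 3143129 to 43571060 counts, and the smallest were K562 DMSO 2 and K562 DMSO 4. Levels are given as CPM, in which the counts of a gene are scaled to a library of fixed size by the TMM method. The libraries read the 3′ ends of mRNAs, so a count does not grow with the length of the gene. CPM are set side by side between genes, but how reads at 3′ ends were assigned to genes is not given. The erythroid markers GATA1, KLF1, HBG1, HBG2 and HBZ summed to between 1306 and 2631 CPM in K562 and to between 2.49 and 5.68 CPM in MOLM13, where HBG1 was at 0 in every library. The MOLM13 markers FLT3, HOXA9, MEIS1, SPI1 and LYZ summed to between 301 and 381 CPM in MOLM13 and to between 36.6 and 82.7 CPM in K562. HOXA9 was at 0 in every K562 library, whereas LYZ overlapped between the lines. The levels are shares of bulk RNA, in which fewer cells expressing a gene and less RNA per cell cannot be told apart.

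The list was named for MYC, and MYC with its partner MAX is known to bind the E-box CACGTG, which reads the same on both strands. In the RefSeq promoter windows, which run from 250 bases before to 50 bases after the start of each gene (GRCh38.p14), CACGTG was found in 17 of the 37 nucleolar genes with a window (45.9%). It was found in 8.77% of all 27305 windows and in 11.7% of the 12038 windows of genes tested in MOLM13. Among other ribosome biogenesis genes, 29 of 108 windows held it (26.9%), and among the cytosolic ribosomal protein genes 4 of 63 did (6.35%). No other motif was searched. A match describes the letters of the window and is not evidence that a protein binds there. The windows of NOP58, NOLC1, RRP12, BOP1, RRS1 and RRP1B were not analysed here.

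The sites below belong to some of the genes described in the comparisons that follow. Others described there, among them WDR74, POLR1C, NCL and NOB1, have a window without CACGTG. Sites of some others, such as LYAR and EBNA1BP2, are not shown. NOP10, RRP9, MYBBP1A and FBL are described with Ro, and UTP4, GAR1 and UTP20 differed between the lines. The NOP10 sites lie on the minus strand at chr15:34343289-34343318 and chr15:34343130-34343159, with the motif beginning at position -170 and at position -11 from the start of the gene. RRP9 has its site at chr3:51941892-51941921 on the minus strand (position -5). MYBBP1A has it at chr17:4555340-4555369 on the minus strand (position 27), and FBL at chr19:39846356-39846385 on the minus strand (position 6). UTP4 has it at chr16:69132621-69132650 on the plus strand (position -16), GAR1 at chr4:109815781-109815810 on the plus strand (position 31), and UTP20 at chr12:101280083-101280112 on the plus strand (position -10). Each line runs 5′ to 3′ on the strand of its gene, with the E-box in capitals.
NOP10 far site: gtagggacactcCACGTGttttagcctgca
NOP10 near site: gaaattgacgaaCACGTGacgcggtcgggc
RRP9: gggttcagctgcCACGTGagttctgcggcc
MYBBP1A: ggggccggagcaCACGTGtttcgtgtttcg
FBL: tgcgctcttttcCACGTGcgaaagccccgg
UTP4: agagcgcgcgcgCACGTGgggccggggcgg
GAR1: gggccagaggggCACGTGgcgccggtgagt
UTP20: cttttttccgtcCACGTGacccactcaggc

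The genes spanned a wide range of levels. In MOLM13 with DMSO the median of the 40 group means was 116 CPM, against 14.2 CPM for all genes tested, and in K562 with DMSO it was 77.4 CPM against 13.7 CPM. NCL, which codes for nucleolin, was the highest in MOLM13 at 2704 ± 860 CPM (SD, n = 4), followed by NPM1 (nucleophosmin, an abundant histone and ribosome chaperone) at 1858 ± 428, DDX21 (an RNA helicase of ribosomal RNA processing) at 1696 ± 486 and FBL (fibrillarin, the methyltransferase of box C/D snoRNPs) at 1387 ± 362. The spreads of these neighbours overlapped across samples, but the order of the 4 genes was the same within each MOLM13 DMSO sample. In K562 the highest was NPM1 at 1490 ± 470 CPM, followed by FBL at 1318 ± 61.3, DDX21 at 1197 ± 388, NCL at 1178 ± 495 and DKC1 (the pseudouridine synthase of box H/ACA snoRNPs) at 1010 ± 250.

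At the other end, 4 genes were under 10 CPM on average in each group with DMSO. They were NOP56, a scaffold protein of the box C/D particle, the 40S assembly factor NOP14, and the 60S assembly factors WDR74 and RRS1. NOP56 stood at 9.94 ± 1.47 CPM in MOLM13 with DMSO, while its partner NOP58, of the same particle, stood at 342 ± 46.5 CPM. For the 3 genes at 0, a count of 0 allows up to 0.872 CPM in the smallest library and 0.0671 CPM in the largest on the same TMM scale, counting error only. How reads on overlapping genes were counted is not given in the sources used here. In the hg38 annotation (GENCODE), 9 of the 43 genes share at least 20% of their last 500 transcribed bases with exons of another gene, and 6 of these 9 stayed under 30 CPM in every group mean, as against 4 of the other 34. The medians of their highest group means were 21.7 and 138 CPM. The 9 include WDR74 (80.0% shared with AP001160.1 on the other strand), NHP2 (75.8% with RMND5B on the other strand), NOP14 (42.0% with NOP14-AS1 on the other strand) and PPAN (58.0% with PPAN-P2RY11 on the same strand). RRS1 and MYBBP1A are also among the 9 and stayed under 30 CPM. The rest of the 9 are NOP2 (97.0% shared with a gene on the same strand), NOB1 and IMP3. Their highest group means were higher, at 46.6 CPM for NOP2, 58.8 CPM for NOB1 and 225 CPM for IMP3. NOP56, NOP16 and NIP7 share none of their last 500 transcribed bases. Whether the overlap bears on the level of a gene was not tested.

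The first question was how the genes changed in MOLM13 cells after 4 h with Ro. With the samples taken as independent, no gene passed in edgeR. By its quasi-likelihood F test and adjustment by Benjamini-Hochberg, 0 of 15031 genes were called (0.0%), and 0 of the 40 nucleolar genes. At an unadjusted p under 0.05, 126 genes were higher (0.838%) and 49 lower (0.326%), among them 1 nucleolar gene in each direction, and DESeq2 called 1 gene (0.00665%) and no nucleolar gene. The fitted log2 change was below 0 in 37 of the 40 genes and above 0 in 3, while 50.1% of all genes tested lay above 0. Without sample MOLM13 DMSO 4, 22 of the 40 lay below 0 and 18 above, as against 54.4% of all genes above 0. That fit kept MOLM13 Ro 4, whose median over the 40 genes stood 0.46 above the mean of the other Ro samples. The median with all samples was -0.12 on the log2 scale. Genes of like level, meaning all tested genes in the same twentieth of mean expression, had a median of -0.052, and relative to them the nucleolar genes had a median of -0.070.

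With the pair number in the fit, which took up the differences between pairs, 317 genes passed (2.11%), of which 141 were higher (0.938%) and 176 lower (1.17%). Among the 40 nucleolar genes 3 passed (7.5%). WDR74 rose, and BOP1 and NOP10 fell. DESeq2 with the pair number called 266 genes (1.77%), among them the nucleolar genes BOP1, NOP10 and RRP9, all lower. The fitted change was above 0 in 3 of 40 as before, as against 50.4% of all genes, and the median was again -0.12 (-0.079 relative to like level). At an unadjusted p under 0.05, 14 of 40 were lower (35.0%) as against 9.65% of all genes, and 1 was higher (2.5%) as against 7.55%. The 37 genes with a fitted change below 0 ran from -0.0040 to -0.46, so that the shift was small in each gene. Without both samples of pair 4, and with the pair number, 7 of 40 lay above 0 (17.5% as against 51.3% of all genes).

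WDR74, a 60S assembly factor at chr11:62832342-62841809 on the minus strand, was the only nucleolar gene called higher. Its levels were 3.76, 3.68, 3.62 and 3.35 CPM in the DMSO samples of pairs 1 to 4, and 8.39, 7.97, 7.56 and 3.86 CPM in the Ro samples. The Ro and DMSO samples did not overlap, a pattern in this direction that 0.665% of all genes showed, and pair 4 moved far less than the others. The counts behind these levels were low, from 26 to 117 with DMSO and from 77 to 165 with Ro. The fitted log2 change with the pair number was 0.88 ± 0.17 (SE, edgeR, adjusted p = 0.00605). Without pair 4 it was 1.12 (adjusted p = 0.000157), without pair 2 the adjusted p was 0.0687 and without pair 3 it was 0.109. DESeq2 with the pair number gave 0.87 and no adjusted p. Since the last bases of WDR74 overlap a gene on the other strand, its reads and those of AP001160.1 cannot be told apart if strand was not used in counting.

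BOP1, a scaffold of the PeBoW complex that matures the 60S subunit, was at 151, 154, 157 and 284 CPM with DMSO and at 113, 129, 139 and 228 CPM with Ro. It was lower with Ro in 4 of 4 pairs, although the groups overlapped because both samples of pair 4 were high. The log2 change with the pair number was -0.27 ± 0.070 (SE, edgeR, adjusted p = 0.0430), and DESeq2 with the pair number gave -0.29 (adjusted p = 0.0156). The call was lost when any single pair was left out, with adjusted p-values in edgeR from 0.0768 to 0.197. Its partners in the complex, PES1 and WDR12, had log2 changes of -0.19 ± 0.076 and -0.12 ± 0.073 with the pair number and did not pass (edgeR, adjusted p = 0.244 and 0.418).

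NOP10, the smallest protein of the box H/ACA particle (chr15:34341713-34343177, minus strand), was at 67.0, 78.3, 92.6 and 100 CPM with DMSO and at 45.9, 61.6, 72.3 and 94.8 CPM with Ro. It was lower in 4 of 4 pairs, least in pair 4. The log2 change was -0.30 ± 0.078 (SE, edgeR with the pair number, adjusted p = 0.0443) and -0.32 in DESeq2 with the pair number (adjusted p = 0.0335). Without pair 1, 2 or 3 the call was lost, with adjusted p-values of 0.230, 0.119 and 0.295. The other proteins of the particle, DKC1, GAR1 and NHP2, had changes between -0.15 and -0.06 and did not pass.

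**Figure D1:**
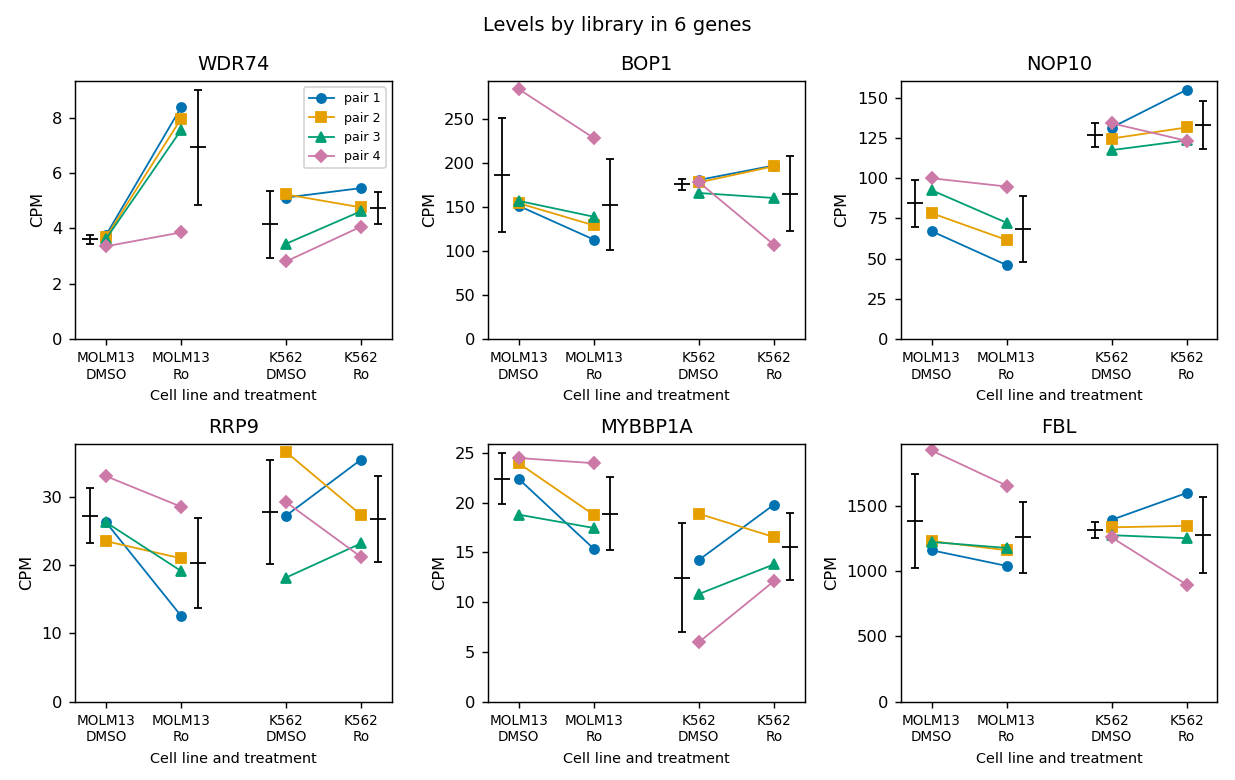
Level of 6 nucleolar genes in every library, in CPM on a linear axis from 0. Each colored line joins the DMSO and Ro samples of 1 pair, and the black bars give the group mean and SD (n = 4). In MOLM13, WDR74 is nearly level in pair 4 (3.35 and 3.86 CPM) and higher with Ro in the other pairs, while BOP1, NOP10, RRP9, MYBBP1A and FBL slope down in all 4 pairs. In K562 the lines cross.

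The other roles were followed through the gene of smallest p in each. Among the 5 genes of RNA polymerase I transcription, none passed in edgeR with the pair number and all 5 had fitted changes below 0, from -0.25 to -0.046. POLR1C, a subunit shared by RNA polymerases I and III, was at 38.1, 36.6, 40.8 and 55.1 CPM with DMSO and at 25.9, 37.6, 32.1 and 45.8 CPM with Ro. The groups overlapped and pair 2 did not go down. Its log2 change was -0.25 ± 0.088 (edgeR with the pair number, adjusted p = 0.139). UBTF, which binds the ribosomal RNA genes and brings in the polymerase, was lower in 4 of 4 pairs, with log2 differences from -0.11 to -0.04.

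In the box C/D particle, FBL was at 1162, 1233, 1226 and 1929 CPM with DMSO and at 1042, 1162, 1180 and 1659 CPM with Ro, lower in 4 of 4 pairs. Its change was -0.11 ± 0.065 (edgeR with the pair number, adjusted p = 0.377), close to the -0.092 median of genes of like level. NOP58 was 1 of the 3 genes with a fitted change above 0, at 0.09 ± 0.071.

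Of the 7 nucleolar phosphoproteins and regulators, none passed in edgeR with the pair number and all 7 lay below 0. MYBBP1A, a nucleolar protein that binds MYB and acts on RNA polymerase I transcription, was at 22.4, 24.0, 18.8 and 24.5 CPM with DMSO and at 15.4, 18.8, 17.5 and 24.0 CPM with Ro. It was lower in 4 of 4 pairs, with the groups overlapping. The change was -0.21 ± 0.099 (edgeR with the pair number, adjusted p = 0.256). The abundant NCL and NPM1 had fitted changes of -0.03 and -0.02 and were higher with Ro in pairs 1 and 2 and lower in pairs 3 and 4.

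All 13 of the 40S assembly factors lay below 0, and none passed in edgeR with the pair number. RRP9, a protein of the U3 snoRNP that guides the first cuts of the precursor (chr3:51933430-51941941, minus strand), was at 26.3, 23.5, 26.3 and 33.1 CPM with DMSO and at 12.6, 21.0, 19.2 and 28.6 CPM with Ro. It was lower in 4 of 4 pairs and most so in pair 1, where the difference was -1.06 on the log2 scale. The fitted change was -0.40 ± 0.11 (edgeR with the pair number, adjusted p = 0.0571), and in DESeq2 with the pair number it was -0.44 (adjusted p = 0.0494). NOB1, the endonuclease that makes the mature 3′ end of 18S ribosomal RNA, and IMP4, also of the U3 particle, were lower in 4 of 4 pairs with changes of -0.25 and -0.24 (edgeR with the pair number, adjusted p = 0.0905 and 0.105).

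Among the 8 tested 60S assembly factors, 6 lay below 0. RRS1 had the lowest fitted change of all 40 genes at -0.46 ± 0.16 (edgeR with the pair number, adjusted p = 0.148), from 6.94, 6.91, 5.21 and 6.08 CPM with DMSO and 4.19, 4.12, 5.82 and 3.71 CPM with Ro. Pair 3 went the other way. NOP2, a methyltransferase of 28S ribosomal RNA, was at 0.01 ± 0.081.

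**Figure D2:**
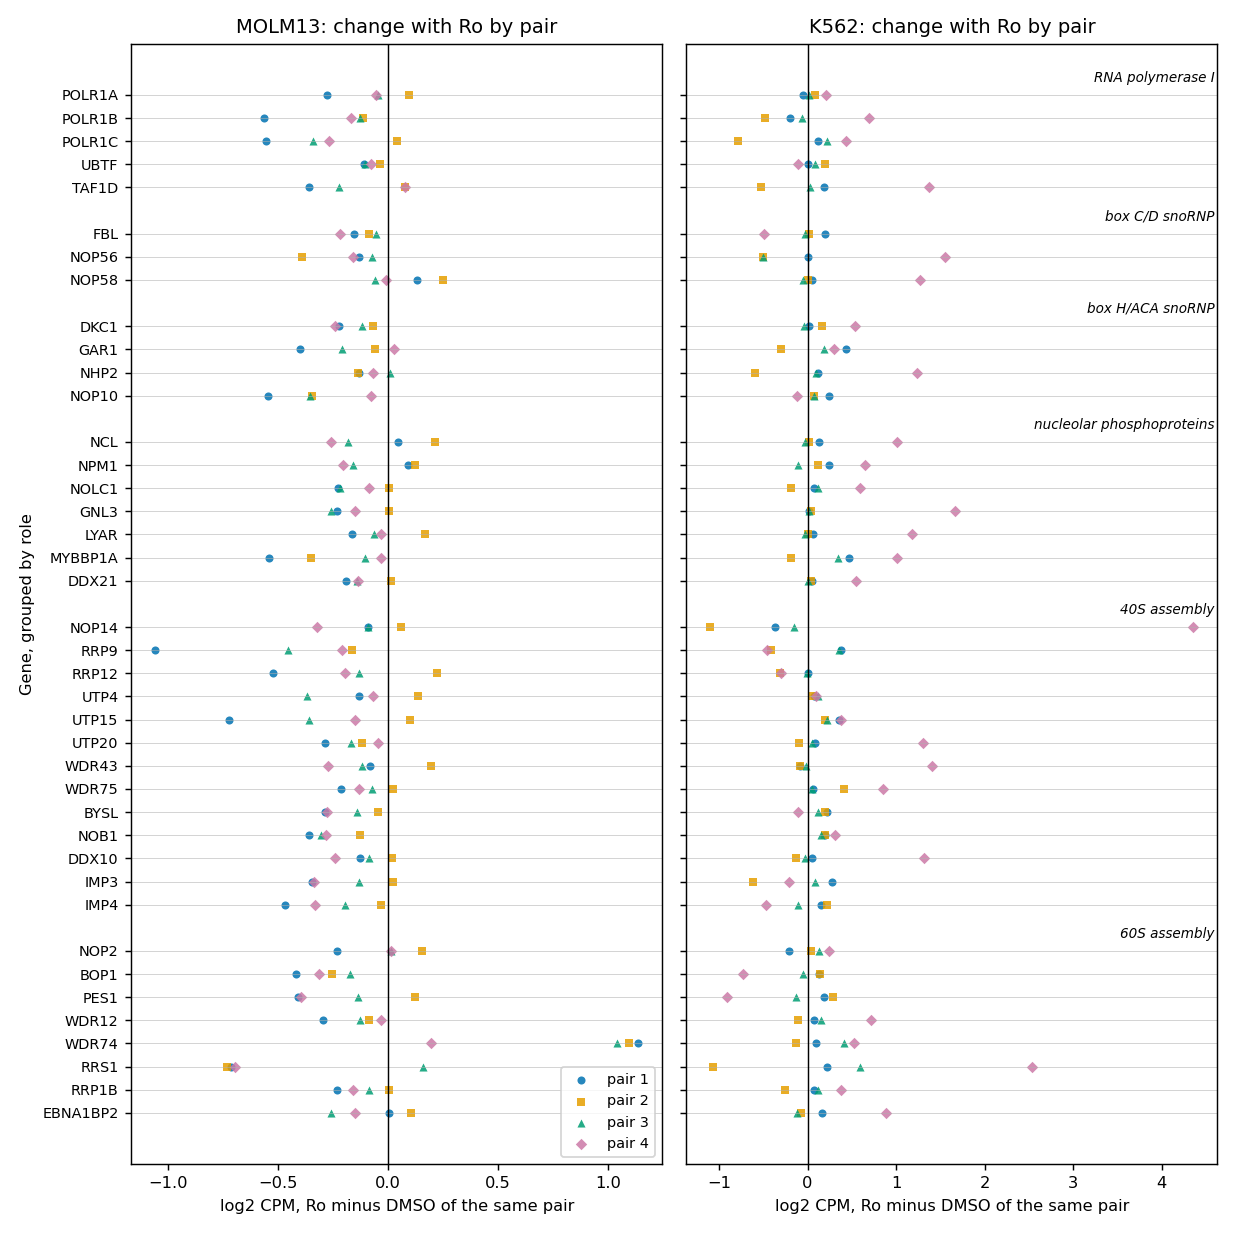
Difference in log2 CPM between the Ro and the DMSO sample of each pair for the 40 tested genes, by role, in MOLM13 (left) and K562 (right). The 2 panels have different axes. In MOLM13 most points lie left of 0 except those of WDR74, and in K562 the points of pair 4 spread furthest, up to 4.36 for NOP14.

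By pair, the genes were lower in at least 3 of the 4 MOLM13 pairs in 33 of 40 cases (82.5%), as against 38.8% of all genes tested. They were lower in all 4 pairs in 14 of 40 cases (35.0% as against 14.9%), and higher in all 4 in the case of WDR74 (2.5% as against 10.2%). The pairs differed. The median of the 40 log2 differences was -0.23 in pair 1, 0.0090 in pair 2, -0.13 in pair 3 and -0.15 in pair 4, while genes of like level had medians of -0.047, -0.012, -0.095 and -0.086. Thus pair 2, with 17 genes lower and 23 higher, did not show the shift, and it was largest in pair 1.

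MYC itself was measured in the same libraries. In MOLM13 it was at 33.5, 47.1, 57.2 and 87.5 CPM with DMSO and at 12.1, 32.4, 31.3 and 82.0 CPM with Ro, lower in 4 of 4 pairs. Its log2 change with the pair number was -0.63 ± 0.13 (edgeR, adjusted p = 0.00868). MYC differed by -1.46, -0.54, -0.87 and -0.093 in pairs 1 to 4, where the nucleolar medians were -0.23, 0.0090, -0.13 and -0.15. A link between MYC and these medians was not tested. In K562 MYC was also lower in 4 of 4 pairs. The change of -0.51 ± 0.15 did not pass there (edgeR with the pair number, adjusted p = 0.947). Among the nucleolar genes tested in MOLM13 that have a promoter window, the 17 with CACGTG had a median change of -0.14 and the 17 without had -0.095 (with the pair number, no test). In K562 these medians were 0.11 and 0.21.

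**Figure D3:**
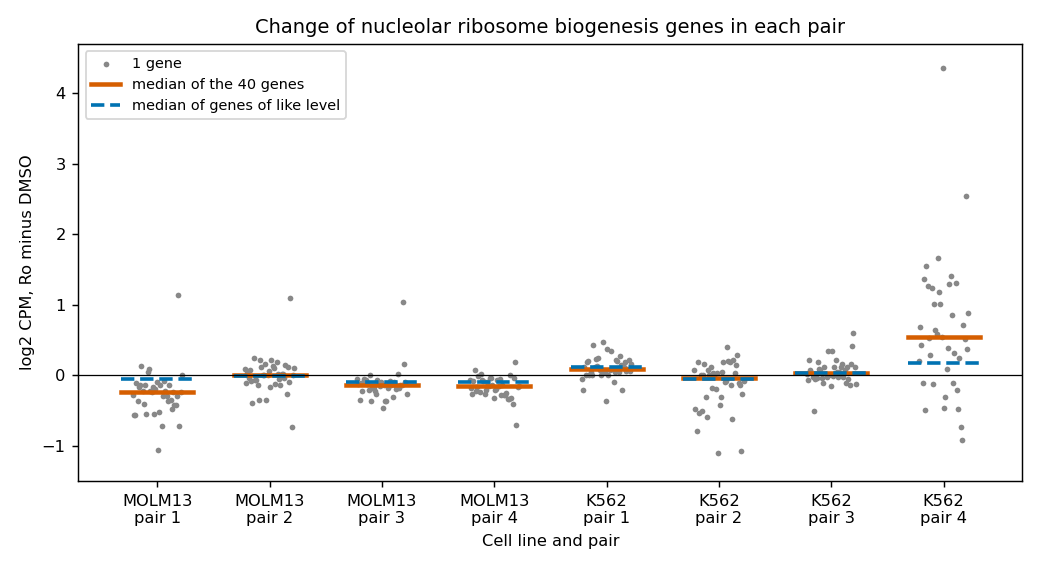
Log2 CPM with Ro minus that with DMSO in each pair, 1 gray point per nucleolar gene (40 genes). The orange bar is their median and the blue dashed bar the median of all tested genes of like level. Orange lies below blue in MOLM13 pairs 1, 3 and 4, and far above it in K562 pair 4 (0.54 as against 0.18).

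In K562 cells the same question gave no call. In edgeR with Benjamini-Hochberg adjustment, 0 of 15227 genes passed (0.0%), and an unadjusted p under 0.05 was reached by 52 genes in the higher direction (0.341%) and 135 in the lower (0.887%), none of them nucleolar. With the pair number 0 genes passed as well, and the unadjusted p was under 0.05 for 129 genes that were higher (0.847%) and 193 that were lower (1.27%). DESeq2 called 0 genes, or 2 with the pair number (0.0131%), and no nucleolar gene. The fitted change was above 0 in 29 of 40 nucleolar genes (72.5%), as against 54.2% of all genes, with a median of 0.12 on the log2 scale and of 0.029 relative to genes of like level. With the pair number it was above 0 in 31 of 40 (77.5% as against 53.5%), with a median of 0.16.

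The positive values rested largely on pair 4. The medians of the differences by pair were 0.089, -0.036, 0.038 and 0.54, where genes of like level had 0.12, -0.051, 0.035 and 0.18. Sample K562 DMSO 4 was low for these genes, and its median log2 CPM over the 40 stood 0.74 below the mean of the other 3 K562 DMSO samples, with 32 of 40 genes lower. In that library 4383241 reads were counted, and the most abundant transcript, LOC100507412, took 0.269% of them as against 2.79% to 6.44% in the other K562 libraries. The part of these features in the result was not tested. Without K562 DMSO 4 the median of the fitted changes was -0.023, and without pair 4, with the pair number, it was 0.036 with 27 of 40 genes above 0 (67.5% as against 50.2%).

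NOP58 shows how this looked in a gene. It was at 306, 301, 243 and 114 CPM with DMSO and at 317, 301, 234 and 274 CPM with Ro, so that pairs 1 to 3 were about level and pair 4 differed by 1.27 on the log2 scale. The fitted change was 0.31 ± 0.23 (edgeR with the pair number, adjusted p = 0.947). TAF1D, a subunit of the selectivity factor SL1 of RNA polymerase I, was at 84.8, 118, 66.0 and 34.9 CPM with DMSO and at 96.9, 81.6, 67.3 and 90.4 CPM with Ro. DKC1 was at 1185, 1157, 1053 and 644 CPM with DMSO and at 1194, 1297, 1023 and 933 CPM with Ro. In each of these genes the DMSO sample of pair 4 was the lowest of the 8. NOP14 had 0 counts there and 60 counts in K562 Ro 4. Its difference of 4.36 in pair 4 therefore depends on the prior count of 2 and sets no upper bound on a fold.

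The pairs of UTP15 were more alike. UTP15, a subunit of the complex that first binds the nascent precursor, was at 35.9, 27.6, 24.1 and 27.5 CPM with DMSO and at 45.9, 31.7, 28 and 35.9 CPM with Ro. It was higher in 4 of 4 pairs, with a change of 0.29 ± 0.13, the smallest p among the nucleolar genes in this line (edgeR with the pair number, adjusted p = 0.947). In all, 6 of 40 genes were higher in all 4 pairs (15.0% as against 6.84% of all genes). They were GNL3, DDX21, UTP4, UTP15, WDR75 and NOB1, and none was lower in all 4 pairs (0.0% as against 4.65%). GNL3, DDX21 and WDR75 rose most in pair 4. There GNL3 went from 21.6 to 68.4 CPM, DDX21 from 666 to 969 CPM and WDR75 from 27.2 to 49.1 CPM. MYBBP1A was at 14.2, 18.9, 10.8 and 5.96 CPM with DMSO and at 19.8, 16.6, 13.8 and 12.1 CPM with Ro, and WDR12 at 76.6, 82.6, 67.2 and 34.5 CPM with DMSO and at 80.3, 76.7, 75 and 56.7 CPM with Ro. Both were lower with Ro in pair 2 and higher in the other pairs, most so in pair 4, and neither passed.

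A fit of pairs 1 and 3 of K562 alone leaves out the smallest libraries, and its p-values rest on little replication. There 418 of 13667 genes passed with the pair number (3.06%), with 1.43% higher and 1.63% lower. Of the 40 nucleolar genes 0 passed. The fitted change was above 0 in 30 of 40, as against 51.0% of all genes. At an unadjusted p under 0.05, 4 nucleolar genes were higher (10.0% as against 8.05%) and 0 lower (0.0% as against 7.10%). The median change was 0.045, where genes of like level had 0.060.

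**Figure D4:**
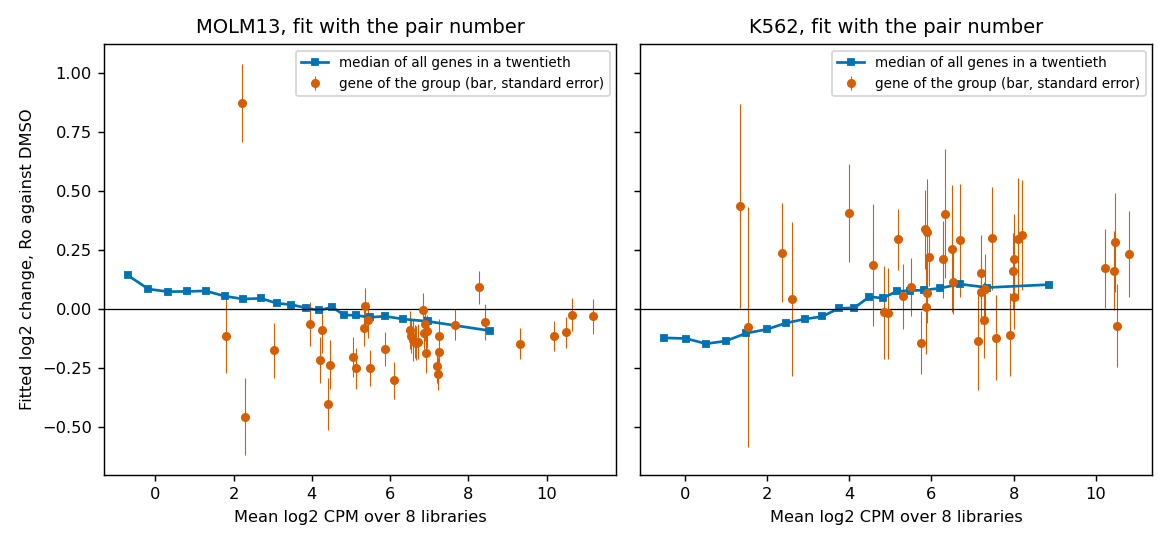
Fitted log2 change with Ro (pair number in the fit) against mean log2 CPM, for the 40 nucleolar genes (orange, with SE) and for the median of all tested genes in each twentieth of expression (blue squares). In MOLM13 the blue line falls with expression and most orange points lie below it, and in K562 the blue line rises and the points lie on both sides with wide SEs.

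The difference of the Ro effect between the lines was tested as the interaction of line and treatment in a fit of all 16 libraries. No gene passed in edgeR, 0 of 16224 (0.0%), with or without the pair number. At an unadjusted p under 0.05, 177 genes were higher in MOLM13 than in K562 (1.09%) and 41 lower (0.253%), with 1 and 0 nucleolar genes, and DESeq2 called 0 genes, or with the pair number 3 genes (0.0185%), none nucleolar. The fitted difference, MOLM13 minus K562, was below 0 in 37 of 40 nucleolar genes and above 0 in 3 (7.5% as against 47.1% of all genes). Without sample MOLM13 DMSO 4, but with MOLM13 Ro 4 kept, 29 lay below 0 and 11 above, as against 51.8% of all genes above 0. The median with all samples was -0.23, where genes of like level had -0.13. With the pair number 2 of 40 lay above 0 (5.0% as against 47.0%) and the median was -0.28 (like level -0.15). At an unadjusted p under 0.05, 5 of 40 were then lower (12.5% as against 2.93%) and 1 was higher (2.5% as against 3.08%).

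NOB1 was the only gene of the 40 that was lower with Ro in all 4 MOLM13 pairs and higher in all 4 K562 pairs (2.5% as against 0.824% of all genes). In MOLM13 it went from 34.5, 37.6, 45.0 and 102 CPM to 26.9, 34.4, 36.3 and 83.4 CPM, and in K562 from 55.6, 54.4, 48.4 and 44.3 CPM to 63.9, 62.2, 54.0 and 55.2 CPM. Both samples of MOLM13 pair 4 were far above the others. The interaction was -0.48 ± 0.13 (edgeR with the pair number, adjusted p = 0.766) and did not pass. WDR74, the gene that rose in MOLM13, was at 5.12, 5.23, 3.44 and 2.80 CPM with DMSO and at 5.46, 4.76, 4.63 and 4.07 CPM with Ro in K562, where the groups overlapped. Its interaction of 0.63 ± 0.28 did not pass either (edgeR with the pair number, adjusted p = 0.766).

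The lines themselves were compared in the DMSO samples. In edgeR with Benjamini-Hochberg adjustment, 6313 of 15268 genes passed (41.3%), with 3215 higher in MOLM13 (21.1%) and 3098 lower (20.3%). Of the 40 nucleolar genes 11 passed (27.5%), with 8 higher in MOLM13 (20.0%) and 3 lower (7.5%). The fitted difference, MOLM13 minus K562, was above 0 in 26 of 40 (65.0% as against 49.8%), with a median of 0.16 on the log2 scale. In the Ro samples it was above 0 in 21 of 40 (52.5% as against 52.4%), so the excess was not seen there. In K562 DMSO 4 the median of these genes stood 0.74 below the other K562 DMSO samples. By the ranges of the DMSO samples, 10 genes lay wholly above K562 (25.0% as against 20.5%) and 3 wholly below (7.5% as against 19.0%).

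RRS1, at 6.94, 6.91, 5.21 and 6.08 CPM in MOLM13 and 2.79, 3.20, 1.36 and 0.350 CPM in K562, had the largest difference at 1.70 ± 0.40 (SE, edgeR, adjusted p = 0.00369). Its K562 counts ran from 2 to 125. UTP20, a large component of the 40S precursor particle, was at 127, 130, 120 and 100 CPM in MOLM13 and at 66.9, 57.9, 46.4 and 22.4 CPM in K562, which is a difference of 1.31 ± 0.29 (adjusted p = 0.00245 in edgeR). The ranges of both genes were apart. NCL was at 2182, 2227, 2422 and 3985 CPM in MOLM13 and at 1480, 1556, 1205 and 471 CPM in K562, a difference of 1.21 ± 0.35 (edgeR, adjusted p = 0.0131). RRP12, POLR1B, MYBBP1A, DDX10 and WDR12 were also called higher in MOLM13, by 0.64 to 1.16. POLR1B, the second largest subunit of RNA polymerase I, was at 34.4, 41.7, 37.5 and 47.1 CPM in MOLM13 and at 26.6, 35.2, 24.6 and 17.9 CPM in K562. The groups overlapped by a single K562 sample, and the adjusted p of 0.0371 (edgeR) moved to between 0.00996 and 0.100 when 1 sample was left out.

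The 3 genes called lower in MOLM13 were GAR1 and NOP10, both of the box H/ACA particle, and UTP4, of the complex that first binds the nascent precursor. GAR1 was at 105, 114, 124 and 146 CPM in MOLM13 and at 227, 285, 190 and 158 CPM in K562 (difference -0.80 ± 0.23, edgeR, adjusted p = 0.0128). UTP4 was at 19.1, 20.3, 21.1 and 28 CPM in MOLM13 and at 41.7, 43, 35.5 and 35.0 CPM in K562 (-0.80 ± 0.20, edgeR, adjusted p = 0.00584). The ranges were apart in each of the 3 genes. NOP10 differed by -0.58 ± 0.20 (edgeR, adjusted p = 0.0328). All 4 proteins of the box H/ACA particle had fitted values below 0, down to -0.80, with DKC1 at -0.40 and NHP2 at -0.25 not passing, whereas the 3 of the box C/D particle lay above 0, from 0.08 for FBL to 0.89 for NOP56, and did not pass in edgeR. NHP2 was at 17.1, 15.9, 15.8 and 21.7 CPM in MOLM13 and at 24.3, 34.6, 18.4 and 7.54 CPM in K562, with the MOLM13 samples inside the range of K562. NOP56 was at 12.0, 9.88, 8.58 and 9.28 CPM in MOLM13 and at 7.47, 7.27, 4.77 and 1.75 CPM in K562. The ranges of NOP56 were apart, and it passed in DESeq2 (adjusted p = 0.0254) but not in edgeR (adjusted p = 0.052). FBL, at the MOLM13 levels given above, was at 1396, 1338, 1278 and 1261 CPM in K562, inside the MOLM13 range.

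At the other ends of their roles stood POLR1C, LYAR and EBNA1BP2, with differences of -0.30, -0.18 and -0.67, and none passed in edgeR in the DMSO samples. POLR1C, at the MOLM13 levels given above, was at 53.1, 80.2, 37.4 and 41.5 CPM in K562. LYAR, a nucleolar zinc finger protein, was at 119, 112, 120 and 168 CPM in MOLM13 and at 181, 190, 157 and 62.9 CPM in K562. EBNA1BP2, a 60S factor, was at 117, 112, 136 and 186 CPM in MOLM13 and at 275, 285, 234 and 87.4 CPM in K562. The ranges overlapped in all 3 genes, and sample K562 DMSO 4 was the lowest of its group for LYAR and EBNA1BP2. Without it EBNA1BP2 was at -0.93 and passed (edgeR, adjusted p = 0.00271), and without K562 DMSO 2 POLR1C was at -0.015 and LYAR at -0.013. In the Ro samples EBNA1BP2 and POLR1C passed, at -0.87 and -0.52 (edgeR, adjusted p = 0.00333 and 0.0286). In the Ro samples in place of the DMSO samples, 19 of 40 nucleolar genes passed (47.5%), as against 54.3% of all genes. POLR1B and MYBBP1A no longer passed there (edgeR, adjusted p = 0.0547 and 0.233), and GAR1, NOP10 and UTP4 did, at -1.09, -0.96 and -0.99. Scaling by library totals alone moved the median difference of all genes to -0.41 and that of the nucleolar genes to -0.26, so that differences between the lines depend on the scaling, and relative to genes of like level the latter was 0.21.

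**Figure D5:**
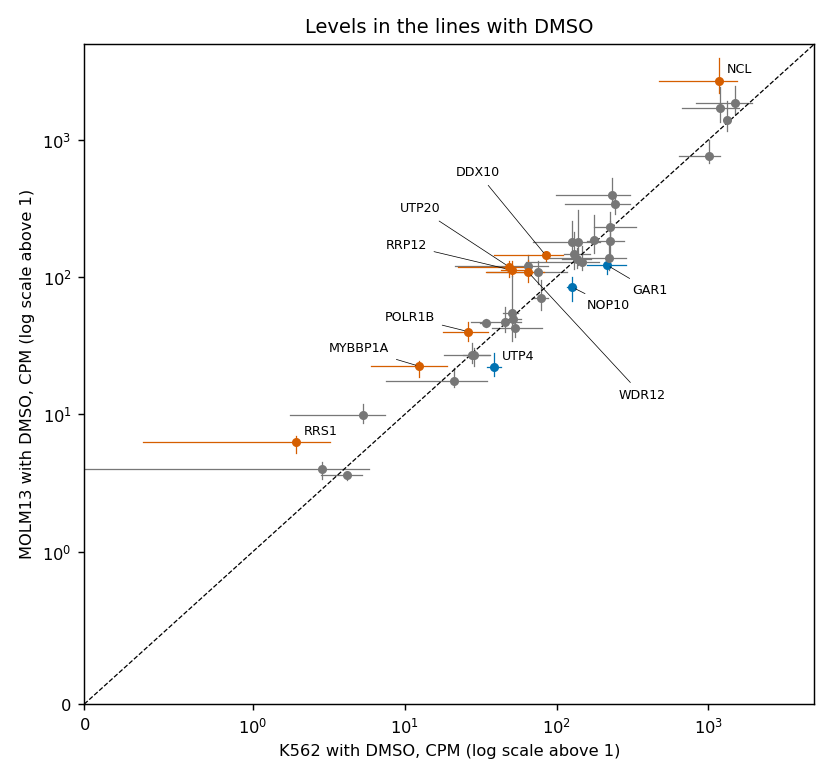
Mean level of the 40 tested genes in MOLM13 (vertical) and K562 (horizontal) with DMSO, in CPM on log scales above 1 and linear below. The bars span the 4 samples of each group, and the dashed line marks equal levels. Genes called higher in MOLM13 are orange and genes called lower are blue, and the K562 bars are widest toward low values, where sample K562 DMSO 4 lies for many genes.

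Other genes of ribosome synthesis were taken from lists chosen with results of these data known. Of 126 other ribosome biogenesis genes, 116 were tested in MOLM13. Their median change with Ro was -0.068 with the pair number (like level -0.035). Of these genes 31 lay above 0 (as against 50.4% of all genes), and 1 passed in edgeR (as against 2.11%). It was EXOSC10, a ribonuclease of the nuclear exosome, at 36.3, 40.4, 46.9 and 73.4 CPM with DMSO and at 27.4, 34.5, 37.3 and 60.5 CPM with Ro, lower in 4 of 4 pairs (-0.29 ± 0.075, edgeR with the pair number, adjusted p = 0.0468). Of 70 tested genes for cytosolic ribosomal proteins 0 passed in edgeR with the pair number (as against 2.11%). At an unadjusted p under 0.05, 38 were lower (as against 9.65% of all genes). In this list 2 lay above 0 (as against 50.4%), and the median was -0.14 (like level -0.092).

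In K562 the other ribosome biogenesis genes had a median of 0.14 and the ribosomal proteins one of 0.088 with the pair number. In edgeR 0 passed in either list. At an unadjusted p under 0.05, 1 gene and 0 genes were higher (as against 0.847% of all genes). Between the lines the ribosomal proteins stood further apart than the nucleolar genes, with 46 of 70 called higher in MOLM13 (as against 21.1% of all genes), 0 called lower and a median of 0.80. Of the other ribosome biogenesis genes 25 of 116 were called higher in MOLM13 and 9 lower (as against 21.1% and 20.3% of all genes), with a median of 0.23.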

How the data were processed

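RNA of MOLM13 and K562 cells was sequenced with a kit that reads 3′ ends. The authors deposited whole-number read counts per gene, without normalization, for 25221 genes by Entrez identifier and symbol. The labels name Trim Galore, STAR 2.5.3a, SAMtools 1.5 and hg38; the counting program and annotation are not given in the sources used here. Genes were followed by identifier, since 4 of the 43 symbols also stand on a second row, at 0 counts. The table has 0 columns with no sample.

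Tests were made with edgeR 4.0.16 in R 4.3.3 (TMM, quasi-likelihood F test), keeping genes that reached 10 counts in 4 or more libraries, with Benjamini-Hochberg adjustment at 0.05. Each line was fitted apart, and the interaction in all 16 libraries. Levels in CPM use a single TMM scaling of the 16 libraries, and log2 differences by pair add a prior count of 2. DESeq2 1.42.0, the pair number as a replicate block, other scalings and filters, and leaving out libraries or pairs were the alternatives. In the smallest library 3 counts are 0.872 CPM on this scale.

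The pair numbers come from the sample titles. Deviations from the group means correlated across genes between same-numbered samples at 0.385 to 0.831 in MOLM13 and at 0.109 to 0.416 in K562, so fits with the pair number are given beside the others. Samples of a group differed by more than sampling noise (chi-square per degree of freedom at least 10.1).

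The members and lists were chosen with earlier results of these data known. Of the cell type markers chosen, 1 is not reported here. Genes given with every value were those passing with the pair number, the smallest p in each role with the pair number in each line, and the extremes of each role between lines, with MYC beside them. NOB1 in both lines, RRS1 with Ro in MOLM13 and WDR74 in K562 were given with every value after their values were seen. The other genes named passed the test or are given by counts, and EXOSC10 by passing with the pair number. Promoters came from RefSeq (GRCh38.p14) and gene positions from GENCODE on hg38. Tables used Python 3.11.15, pandas 2.3.3, numpy 2.4.6 and matplotlib 3.10.9.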

Additional observations from a re-analysis of the deposited data

Results flagged for a closer look

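In groups of 4 samples, the nucleolar genes share their libraries, so the cases that follow are not independent and their share is no test. In 13 of 160 cases, 1 sample of a gene stood far from the other 3, where chance gives about 5%. MOLM13 DMSO 4 was the high sample in 8 of them, with 1929 CPM for FBL (next 1233), 1000.2 for DKC1, 3985 for NCL, 168 for LYAR, 102 for NOB1, 299 for IMP3, 308 for IMP4 and 284 for BOP1. MOLM13 Ro 4 was the high sample for NOB1 (83.4 CPM) and EBNA1BP2 (167 CPM), K562 DMSO 4 and K562 Ro 4 were high for UBTF (332 and 308 CPM), and MOLM13 Ro 1 was high for NOP14 (4.19 CPM). Over the 40 genes the median log2 CPM of MOLM13 DMSO 4 stood 0.40 above the mean of the other 3 samples of its group, and that of MOLM13 Ro 4 stood 0.46 above. LOC100507412 took 4.11% and 6.29% of the counts in these libraries and 9.16% to 24.3% in the other MOLM13 libraries. The part of these features in the levels was not tested.

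NOB1 had a difference of the Ro effect, MOLM13 minus K562, of -0.49 on the log2 scale, with every MOLM13 pair lower and every K562 pair higher. The interaction did not pass in edgeR (adjusted p = 1.00), nor with the pair number (adjusted p = 0.766).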

How the results depend on the processing

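The counts of calls with Ro depended on the pair number as a replicate block. In MOLM13, 0 genes were called without it and 317 with it in edgeR, and 1 and 266 in DESeq2, with 3 nucleolar genes called under the block in each tool. In K562, DESeq2 with the block called 2 genes, and pairs 1 and 3 alone with the block, a fit with little replication, 418. For the interaction DESeq2 with the block called 3. Under the block the interaction called 0 genes in edgeR, and the comparison of the lines, whose numbers do not pair the samples (correlations from -0.129 to 0.053), called 9 nucleolar genes (22.5% as against 37.6% of all genes) in place of 11. Leaving out 1 library without the block gave 0 calls with Ro in either line, and leaving out 1 pair with the block gave 49 to 358 genes and 0 to 3 nucleolar genes in MOLM13, with 49 without pair 3, 106 without pair 1, 187 without pair 2 and 358 without pair 4. With 1 library left out, the median of the nucleolar genes ran from -0.235 (without MOLM13 Ro 4) to -0.0069 (without MOLM13 DMSO 4) in MOLM13. It ran from -0.0226 to 0.244 in K562 and from -0.359 to -0.0763 for the interaction. With 1 pair left out under the block, it ran from -0.157 to -0.0901 in MOLM13 and from 0.0359 to 0.231 in K562. Between the lines, 6 (without MOLM13 DMSO 2) to 16 (without K562 DMSO 2) nucleolar genes and 5048 to 6582 genes were called, the median ran from -0.0301 to 0.291, and the Ro samples called 19 nucleolar genes. DESeq2 called 15 (37.5% as against 44.3%).

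Single genes changed sign as follows, none of them past the threshold. Over the fits without 1 library or pair, FBL ran from -0.28 to 0.069 with Ro in MOLM13 (highest without MOLM13 DMSO 4) and from -0.11 to 0.17 between the lines (lowest without MOLM13 DMSO 4), the interaction of BOP1 from -0.47 to 0.073 (highest without MOLM13 DMSO 4), and NHP2 between the lines from -0.51 to 0.075 (highest without K562 DMSO 2). In K562, TAF1D ran from -0.091 (without pair 4, with the block) to 0.50, DKC1 from -0.016 to 0.24 and WDR12 from -0.051 to 0.30, and all 3 were below 0 without K562 DMSO 4. In K562 pairs 1 and 3, NOP58 was -0.019 and DKC1 -0.030. Between the lines FBL was -0.33 with library totals, -0.016 in the Ro samples and -0.0089 relative to like level. The causes were not tested. Library depth limits the genes under 10 CPM most, at 0 to 156 counts for NOP14.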
